A study of Mus musculus with 4 samples.

Results

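The 9 genes described here are targets of BMP-SMAD signalling that restrain differentiation or the pathway itself: Id1, Id2, Id3, Id4, Smad6, Smad7, Bambi, Msx1 and Msx2. They were listed by name rather than by a cutoff on any value, although with earlier results of these data known, and each name matched 1 of the 51826 genes in the deposited expression table. BMP ligands bind paired type I and type II receptor kinases, which phosphorylate receptor SMADs that enter the nucleus with SMAD4 and bind DNA. Id genes are among the most direct targets of these complexes, and their products are helix-loop-helix proteins without a DNA-binding basic region that hold E proteins away from DNA. SMAD6, SMAD7 and the pseudoreceptor BAMBI are induced by BMP and block its receptors or SMADs. MSX1 and MSX2 are homeobox repressors made in many BMP-exposed tissues, and in the early embryo BMP helps to specify posterior and extraembryonic mesoderm.

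RNA was sequenced from C57BL/6 mouse embryonic stem cells on day 3 of differentiation into mesoderm-like cells. There were 2 wild-type libraries and 2 Stk40-/- libraries. Stk40 encodes a pseudokinase, and the series asks how its deletion bears on c-JUN protein and on mesoderm differentiation. Both genotypes were kept on feeder cells with LIF, CHIR99021 and the MEK inhibitor PD0325901, moved to gelatin, given 10 ng/ml BMP4 for 2 days, and switched to CHIR99021, a GSK3 inhibitor that activates Wnt signalling, at 1 uM with 0.5% DMSO until collection. For both groups, the medium stated for the time after this switch lists no BMP4. The sources used here do not say whether the Stk40-/- cells came from 1 clone, nor whether the libraries of a genotype were separate cultures, so each p-value reflects the spread among these 4 libraries alone, which may be technical.

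Values are TPM, a transcript abundance that sums to 1000000 in a library. They are scaled for transcript length and library and so can be compared between genes. Sequencing depth is unknown from TPM, and no counting interval is given. Stk40, examined as a check of the labels, gave 28.9 and 39.9 TPM for wild type against 3.54 and 3.17 TPM for Stk40-/-. Genotypes were compared with limma on log2(TPM + 1) over the 15739 genes whose mean reached 1 TPM, and a fold change below is the log2 difference on that scale, Stk40-/- minus wild type, which understates the change of low genes. In limma 0% of genes were called lower and 0% higher at an adjusted p under 0.05, while 4.51% were lower and 6.48% higher at an unadjusted p under 0.05. Over all tested genes the median fold change was 0.065. The mesoderm gene T measured 1025 and 535 TPM in wild type against 355 and 217 TPM in Stk40-/- cells. Mesp1 and Kdr, among the later mesoderm markers, were at or below 0.177 and 0.211 TPM. Of other mesoderm markers, Msgn1 measured 90.6 and 7.22 TPM in wild type against 0.975 and 0 TPM in Stk40-/- cells. Mixl1 measured 24.7 and 6.77 TPM in wild type against 2.06 and 1.71 TPM in Stk40-/- cells.

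Id1 was the gene of the group with the clearest difference, and Msx1 and Msx2 were also lower in both Stk40-/- libraries. Id2 was lower by a narrow margin, Id3 overlapped between genotypes, and Id4, Smad6, Smad7 and Bambi overlapped with fold changes near 0. Under limma 0 of the 9 genes passed. Stk40-/- values were both below the wild-type values in 4 of the 9 genes, against 16.6% of all tested genes, and both above them in 0 of the 9, against 27.5%. With each library centred on its median, the counts of the 9 were again 4 and 0, and the shares of all tested genes were 25.1% and 18.7%. Without wild-type library 2, Stk40-/- library 1 or Stk40-/- library 2, the count on the high side was 3, 1 and 3 of the 9. The shares of all tested genes on that side were then 40%, 39.9% and 44.1%. With all 4 libraries the other 5 of the 9 overlapped, as did 56.0% of all tested genes. Negative fold changes were found in 6 of the 9 genes and in 41.4% of all tested genes, and the median of the 9 was -0.29. All 9 genes passed the filter on low values, but Msx1 had a mean of 0.594 TPM in the Stk40-/- cells and passed only through the wild-type libraries, so these counts are a description. With 2 libraries against 2, an exact permutation test of a single gene cannot give a p below 0.333.

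**Figure D1:**
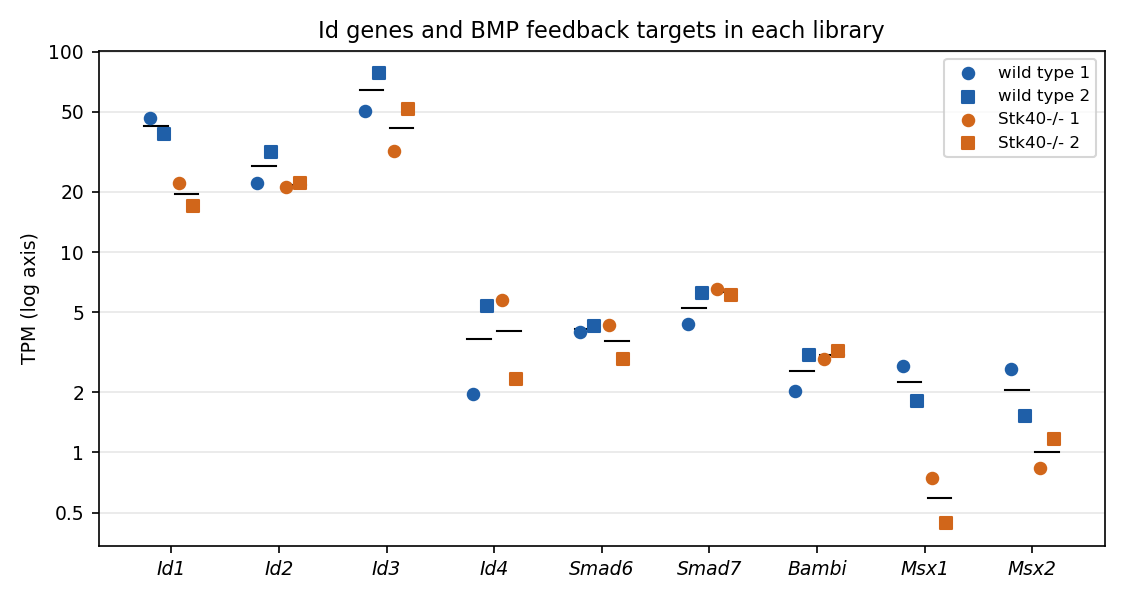
TPM of the 9 genes on a log axis, 1 point per library (circles for replicate 1, squares for replicate 2, blue for wild type, orange for Stk40-/-), with short black lines at the group means. Id1, Id2 and Id3 lie at 17.0 TPM or more in all 4 libraries and the other 6 genes at 6.53 TPM or less, and the genotypes separate for Id1, Id2, Msx1 and Msx2.

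The Id family was dominated by Id3, Id1 and Id2. Id1 (ENSMUSG00000042745.9; GRCm38 chromosome 2, 152736251 to 152737410, plus strand), the classical SMAD1/5 target, measured 46.8 and 38.7 TPM in wild type against 22.1 and 17.0 TPM in Stk40-/- cells. Both Stk40-/- libraries were lower than both wild-type libraries, and the gap between genotypes exceeded the spread within either. The means of the wild-type and Stk40-/- groups were 42.8 ± 5.72 and 19.6 ± 3.60 TPM (SD, n = 2 each), a ratio of 2.18 of wild type over Stk40-/-. The fold change was -1.09 (SE 0.19, 95% interval -1.59 to -0.59). Its limma p of 0.0033 ranked 177 of 15739, and its limma adjusted p was 0.289, so it did not pass. Among the tested genes, the level of Id1 stood at percentiles 78.3 and 75.0 in the wild-type libraries and 60.5 and 55.2 in the Stk40-/- libraries, a comparison that does not depend on the scaling of a library.

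Id3 (ENSMUSG00000007872.3; chromosome 4, 136143497 to 136145755, plus strand) was the most abundant Id gene in every library. It measured 50.7 and 78.0 TPM in wild type against 32.0 and 51.5 TPM in Stk40-/- cells. The genotypes overlapped, because Stk40-/- library 2 lay just above wild-type library 1. Within each genotype library 2 was the higher, by 0.61 in wild type and 0.67 in Stk40-/- cells on the log2 scale, as large as the fold change of -0.62 (SE 0.32, 95% interval -1.49 to 0.25, limma adjusted p = 0.553). Without Stk40-/- library 1 the fold change was -0.28, and without Stk40-/- library 2 it was -0.96.

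Id2 (ENSMUSG00000020644.9; chromosome 12, 25093799 to 25097140, minus strand), which BMP and several other signals induce, measured 22.2 and 31.4 TPM in wild type against 21.0 and 22.0 TPM in Stk40-/- cells. Wild-type library 2 alone was high, and the other 3 libraries lay close together. The fold change was -0.29 (SE 0.20, 95% interval -0.83 to 0.26, limma adjusted p = 0.640), and leaving out wild-type library 2 or wild-type library 1 gave -0.044 and -0.53. The processed pseudogene Gm6175, which shares 10.5% of its 31-base words with Id2, was at 0 TPM in every library.

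Id4 (ENSMUSG00000021379.1; chromosome 13, 48261228 to 48266026, plus strand), the family member best known from neural progenitors, was the least abundant. It measured 1.95 and 5.37 TPM in wild type against 5.78 and 2.33 TPM in Stk40-/- cells. Each genotype held 1 low and 1 high library, and the libraries of a genotype differed by 1.11 in wild type and by -1.02 in Stk40-/- cells (library 2 minus library 1, log2 scale). The fold change of 0.13 had a 95% interval from -1.40 to 1.66 (limma adjusted p = 0.947) and changed sign with the library left out, to -0.42 without wild-type library 1 and -0.38 without Stk40-/- library 1. The antisense gene A330033J07Rik, which overlaps Id4 on the opposite strand, was at or below 0.121 TPM. Gm49291, a lincRNA on that strand that shares 5.13% of its 31-base words with Id4, was not used here. The sources used here do not say whether the libraries kept strand.

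**Figure D2:**
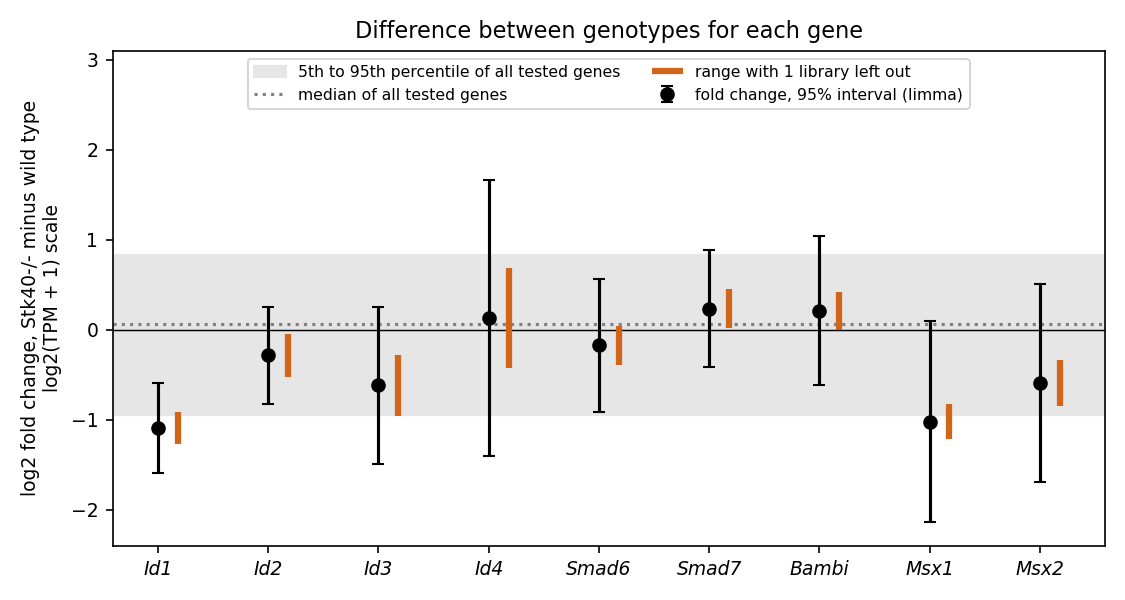
Log2 fold change of each gene, Stk40-/- minus wild type on the log2(TPM + 1) scale (black points, 95% limma interval), beside the range when 1 library is left out (orange bars); the grey band runs from the 5th to the 95th percentile of all tested genes, -0.95 to 0.83. The interval of Id1 alone lies wholly below 0, and the points of Id1 and Msx1 lie below the band.

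Ratios between members within a library, which no scaling of that library can alter, show how the makeup of the Id pool differed. The ratio of Id1 to Id2 was 2.11 and 1.23 in the wild-type libraries and 1.05 and 0.775 in the Stk40-/- libraries. It was lower in both Stk40-/- libraries, so Id1 was below Id2 in Stk40-/- library 2 and above it in the other 3 libraries. The ratio of Id1 to Id3 was 0.924 and 0.496 in wild type and 0.693 and 0.331 in Stk40-/- cells, and the genotypes overlapped. Id1 made up 38.5% and 25.2% of the summed Id TPM in wild type and 27.4% and 18.4% in Stk40-/- cells, again with overlap. The share of Id3 was 41.7% and 50.8% in wild type and 39.5% and 55.5% in Stk40-/- cells. The share of Id2 was 18.3% and 20.5% in wild type and 26.0% and 23.7% in Stk40-/- cells, and was thus higher in both Stk40-/- libraries. Id4 held 7.14% of the pool or less in each library. The ratios are descriptions, and no test was run on them.

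The E proteins that ID proteins bind, Tcf3, Tcf4 and Tcf12, give the other side of this balance. Tcf3, which encodes E2A, measured 76.6 and 73.5 TPM in wild type against 81.4 and 91.7 TPM in Stk40-/- cells (fold change 0.20, SE 0.10, limma adjusted p = 0.532). Tcf12, which encodes HEB, measured 35.8 and 33.2 TPM in wild type against 40.1 and 42.6 TPM in Stk40-/- cells (fold change 0.26, SE 0.11, limma adjusted p = 0.490). Tcf3 and Tcf12 were higher in both Stk40-/- libraries without passing, as were 27.5% of all tested genes. Their fold changes lay below the 75th percentile of all tested genes, 0.28. Tcf4 overlapped (18.3 and 27.3 TPM in wild type against 21.8 and 20.3 TPM in Stk40-/- cells). Summed Id TPM came to 122 and 154 in wild type against 80.9 and 92.9 in Stk40-/- cells, and summed E protein TPM to 131 and 134 against 143 and 155. The ratio of the Id sum to the E protein sum was 0.931 and 1.15 in wild type and 0.564 and 0.601 in Stk40-/- cells. The ratio was lower in both Stk40-/- libraries than in either wild-type library. RNA levels do not show how much of either protein was made, and protein was not analysed here.

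**Figure D3:**
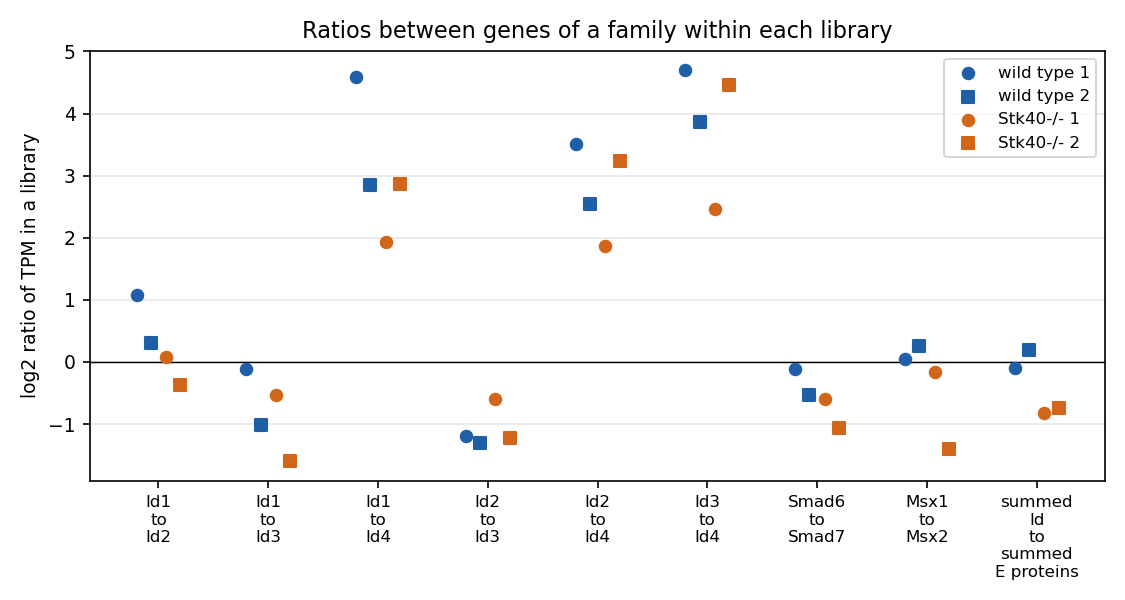
Log2 ratio of TPM between the named genes in each library (circles for replicate 1, squares for replicate 2, blue for wild type, orange for Stk40-/-). The Stk40-/- libraries lie below both wild-type libraries for Id1 to Id2, Smad6 to Smad7, Msx1 to Msx2 and summed Id to summed E proteins, and overlap for the others.

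Levels of the 3 feedback inhibitors overlapped between genotypes. Smad7 (ENSMUSG00000025880.11; chromosome 18, 75367529 to 75395935, plus strand), which blocks both BMP and TGF-beta receptors, measured 4.35 and 6.22 TPM in wild type against 6.53 and 6.09 TPM in Stk40-/- cells. Wild-type library 1 was the low one and the other 3 lay close together. The fold change was 0.23 (SE 0.24, 95% interval -0.42 to 0.89, limma adjusted p = 0.717), and 0.017 without wild-type library 1. This interval spans both a decrease and an increase, and whether the fold change of Smad7 differs from that of Id1 was not tested.

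Smad6 (ENSMUSG00000036867.7; chromosome 9, 63953076 to 64022059, minus strand), the inhibitor more selective for BMP signals, measured 4.01 and 4.29 TPM in wild type against 4.31 and 2.92 TPM in Stk40-/- cells. Only Stk40-/- library 2 stood apart, on the low side. The fold change was -0.17 (SE 0.27, 95% interval -0.91 to 0.57, limma adjusted p = 0.821), and it was 0.045 without Stk40-/- library 2. The ratio of Smad6 to Smad7 was 0.922 and 0.690 in wild type and 0.660 and 0.479 in Stk40-/- cells, lower in both Stk40-/- libraries by a margin that was small between wild-type library 2 and Stk40-/- library 1.

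Bambi (ENSMUSG00000024232.1; chromosome 18, 3507923 to 3516404, plus strand), a receptor-like protein without a kinase domain, measured 2.03 and 3.06 TPM in wild type against 2.92 and 3.21 TPM in Stk40-/- cells. The genotypes overlapped, with a fold change of 0.21 (SE 0.31, 95% interval -0.61 to 1.04, limma adjusted p = 0.805). The table also lists a processed pseudogene of it, Bambi-ps1, at 3.76 and 3.87 TPM in wild type against 0 and 1.67 TPM in Stk40-/- cells. The pseudogene was thus above Bambi itself in both wild-type libraries and below it in both Stk40-/- libraries. Its GENCODE transcript of 592 bases shares 17 of 562 31-base words with Bambi, or 3.02%, and its other words do not occur in Bambi transcripts. The sources used here do not say how reads were assigned between the pair. Summed, the pair measured 5.78 and 6.93 TPM in wild type against 2.92 and 4.88 TPM in Stk40-/- cells, and the fold change of the sum, an analysis chosen after the values were seen, was -0.61 (SE 0.29, limma adjusted p = 0.524). The negative fold change is that of the sum, whereas Bambi alone overlapped between genotypes with a fold change of 0.21.

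**Figure D4:**
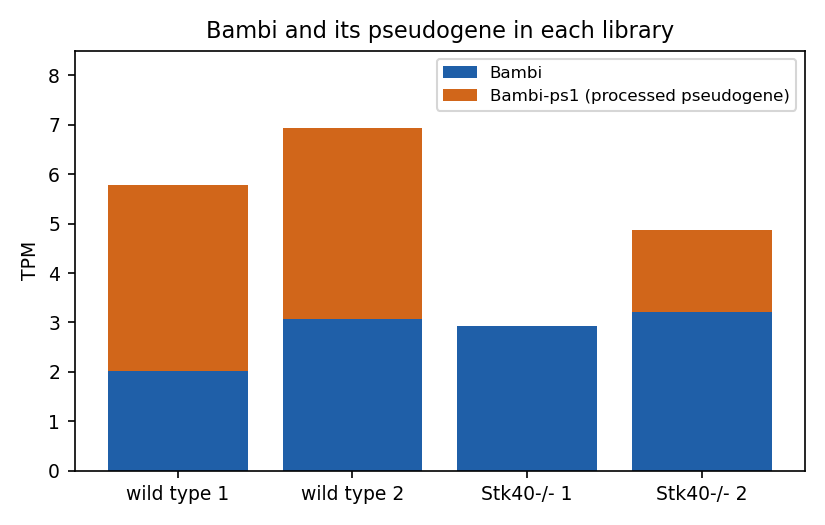
Stacked bars of TPM for Bambi (blue) and its processed pseudogene Bambi-ps1 (orange) in each library. Bambi lies between 2.03 and 3.21 TPM in all 4 libraries, while the pseudogene is at 3.76 and 3.87 TPM in wild type against 0 and 1.67 TPM in Stk40-/- cells.

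The Msx genes were near the lower end of what was tested. Msx1 (ENSMUSG00000048450.10; chromosome 5, 37820485 to 37824583, minus strand) measured 2.69 and 1.81 TPM in wild type against 0.745 and 0.444 TPM in Stk40-/- cells. All Stk40-/- values lay below 1 TPM and all wild-type values above it. The group means were 2.25 ± 0.620 and 0.594 ± 0.213 TPM (SD, n = 2 each), a ratio of 3.78 of wild type over Stk40-/-, the largest ratio of means among the 9 genes. On the log2(TPM + 1) scale the fold change was -1.02 (SE 0.41, 95% interval -2.14 to 0.10, limma adjusted p = 0.481), and with a pseudocount of 0.01 TPM it was -1.92.

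Msx2 (ENSMUSG00000021469.9; chromosome 13, 53466884 to 53473074, minus strand) measured 2.60 and 1.52 TPM in wild type against 0.837 and 1.17 TPM in Stk40-/- cells. The genotypes did not overlap, although wild-type library 2 was nearer to the Stk40-/- libraries than to wild-type library 1. The fold change was -0.59 (SE 0.41, 95% interval -1.70 to 0.51, limma adjusted p = 0.639), and -0.33 without wild-type library 1. Msx1 and Msx2 were at similar levels in wild type, with a ratio of Msx1 to Msx2 of 1.03 and 1.19. In Stk40-/- cells the ratio was 0.891 and 0.379, lower in both libraries.

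The order of the 9 genes by level was steadiest at the top. Id3 led in every library, and Smad7 came next after the 3 most abundant Id genes. Id1 was above Id2 in 3 libraries and below it in Stk40-/- library 2. In wild type Id1 lay below both values of Id3 and above both of Id2, whereas in Stk40-/- cells the values of Id1 and Id2 overlapped. Below Smad7, Id4 varied between replicates over a range that held all values of Smad6 and Bambi. Msx1 and Msx2 held the last places in both Stk40-/- libraries and in wild-type library 2, whereas in wild-type library 1 both were above Bambi and Id4.

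Promoter sequences are shown for Id2, Id3, Id4 and Smad6, because they compare members of the Id family and, in Smad6, show the rarest of the SMAD-linked motifs searched. RefSeq gives a window from 250 bases before to 50 after a start site on GRCm38.p6, and it was searched on both strands for the GC-rich SMAD motif GGCGCC, the SMAD box GTCT, and the combined motif bound by SMAD1 with SMAD4, a GC box followed at a fixed distance by a GTCT. The windows of 6 members, Id2, Id3, Id4, Smad6, Msx1 and Msx2, were searched, and those of Id1, Smad7 and Bambi were not used here. For Id2, Id3 and Msx2 the bases before this start lie inside the gene bounds given above, so motif positions depend on the RefSeq start used. Printed 5′ to 3′ are the 250 bases before the start, with each match to these motifs in capitals on either strand.
Id2 (chr12:25096093-25096342, minus strand): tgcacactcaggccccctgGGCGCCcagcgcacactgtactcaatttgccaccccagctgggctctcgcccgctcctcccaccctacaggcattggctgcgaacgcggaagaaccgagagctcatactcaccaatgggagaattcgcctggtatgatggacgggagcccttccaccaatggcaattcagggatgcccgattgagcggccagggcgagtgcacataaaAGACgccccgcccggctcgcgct
Id3 (chr4:136143572-136143821, plus strand): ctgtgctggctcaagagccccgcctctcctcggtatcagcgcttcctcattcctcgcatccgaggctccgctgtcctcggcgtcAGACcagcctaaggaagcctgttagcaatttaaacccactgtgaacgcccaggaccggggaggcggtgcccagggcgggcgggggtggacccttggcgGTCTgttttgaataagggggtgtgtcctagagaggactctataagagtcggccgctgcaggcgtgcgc
Id4 (chr13:48260866-48261115, plus strand): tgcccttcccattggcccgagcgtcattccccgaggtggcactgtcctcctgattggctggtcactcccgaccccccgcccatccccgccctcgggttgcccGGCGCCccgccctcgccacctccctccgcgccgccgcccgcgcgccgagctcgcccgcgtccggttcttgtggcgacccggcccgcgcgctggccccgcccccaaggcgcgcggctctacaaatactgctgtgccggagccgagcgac
Smad6 (chr9:64022060-64022309, minus strand): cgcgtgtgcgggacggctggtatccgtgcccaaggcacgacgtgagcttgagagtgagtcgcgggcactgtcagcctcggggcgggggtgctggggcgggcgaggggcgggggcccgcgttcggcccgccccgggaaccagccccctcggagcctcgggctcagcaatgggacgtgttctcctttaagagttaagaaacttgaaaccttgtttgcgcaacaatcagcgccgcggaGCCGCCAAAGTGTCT
GGCGCC was found once in the windows of Id2 and Id4, first base at -231 and -148 from the start, and in 11.9% of all 32851 promoter windows. The combined motif in its loose form was found in Smad6 alone of these windows, first base at -15, and in 0.667% of all windows. Its GC box in Smad6 reads GCCGCC, and GGCGCC itself was not found in the Smad6 window. GTCT had 1 match in Id2, 3 in Id3 (1 of them after the start and not printed), 2 in Msx2 and 2 in Smad6, which meet at the start, and 88.0% of all windows held at least 1. Msx1 had no match to any of the 3. A match is a description of letters, and enhancers farther from the start were not examined. E-box letters, CANNTG, which E proteins bind, were found once in each of Id2, Smad6, Msx1 and Msx2 and in 72.3% of all windows.

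The rest of the pathway was read from lists of its ligands, receptors, SMADs, antagonists and other targets, and in limma 0 members of these lists passed. Beside each count of genes lower or higher in both Stk40-/- libraries stand the shares over all tested genes, 16.6% lower and 27.5% higher, and a median of 0.065. Of 11 ligand genes 5 were tested, 1 lower and 1 higher, close to those shares, with a median fold change of -0.034. Bmp4, the ligand also added to the medium, measured 5.49 and 1.41 TPM in wild type against 1.81 and 0.648 TPM in Stk40-/- cells, and the genotypes overlapped (fold change -0.88, SE 0.64, limma adjusted p = 0.640). Wild-type library 1 was the high one. Bmp2 measured 3.53 and 2.08 TPM in wild type against 1.78 and 1.44 TPM in Stk40-/- cells, and Bmp6 0.949 and 1.95 TPM against 2.18 and 2.86 TPM.

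Receptors and transducers had fold changes of both signs, more of them positive than negative. Of 9 tested receptor and co-receptor genes 7 had positive and 2 negative fold changes, with 2 higher and 0 lower in both Stk40-/- libraries and a median of 0.19, and 2 of 9 is no larger a share than the 27.5% of all tested genes. The type I receptor gene Bmpr1a measured 48.1 and 34.4 TPM in wild type against 49.7 and 44.2 TPM in Stk40-/- cells. The type II receptor gene Acvr2b measured 10.7 and 9.66 TPM in wild type against 13.9 and 12.8 TPM in Stk40-/- cells (fold change 0.36, SE 0.15, limma adjusted p = 0.491), and Bmpr2 overlapped. Of 13 tested SMAD and SMAD regulator genes 8 were positive and 5 negative, with a median of 0.065. In both Stk40-/- libraries 3 of the 13 were lower and 4 higher, against 16.6% and 27.5% of all tested genes. The ubiquitin ligase gene Smurf2, which helps to remove SMADs, measured 35.9 and 39.0 TPM in wild type against 44.5 and 43.0 TPM in Stk40-/- cells. The SMAD corepressor gene Skil was at 49.4 and 47.8 TPM and at 53.8 and 54.8 TPM, and the SMAD phosphatase gene Ctdsp2 at 44.6 and 53.5 TPM and at 39.4 and 41.5 TPM, in the same order.

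**Figure D5:**
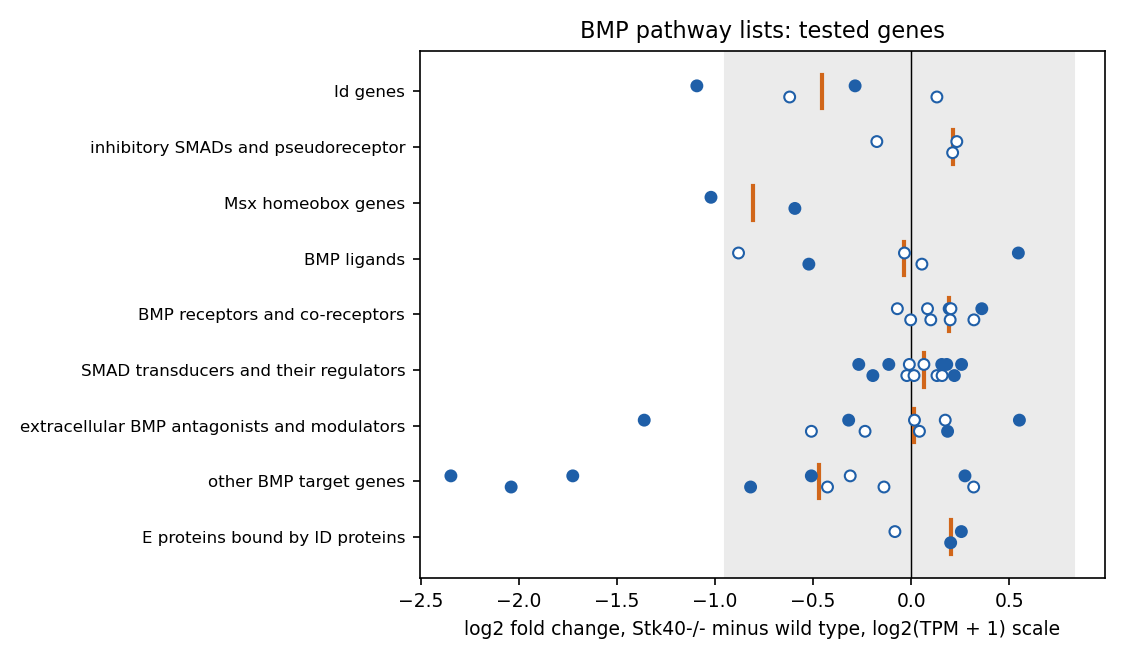
Log2 fold change of every tested gene of each list, Stk40-/- minus wild type on the log2(TPM + 1) scale; filled points mark genes whose genotypes do not overlap, open points those that do, orange lines the list medians, and the grey band the 5th to 95th percentile of all tested genes. Receptors and transducers lie inside the band, and the points farthest below it are Cdx2, Gata2, Cdx1, Fst, Id1 and Msx1.

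Among other BMP targets 10 of 18 listed genes were tested, 8 with negative and 2 with positive fold changes, and 5 were lower and 1 higher in both Stk40-/- libraries, with a median of -0.47, where 41.4% of all tested genes were negative, 16.6% lower and 27.5% higher. The 3 with the smallest p, Cdx1, Cdx2 and Gata2, had fold changes of -1.72, -2.35 and -2.04. Cdx1 measured 28.2 and 27.5 TPM in wild type against 6.49 and 9.17 TPM in Stk40-/- cells, Cdx2 at 11.1 and 9.03 TPM and at 1.46 and 0.904 TPM, and the blood and trophoblast factor gene Gata2 at 9.20 and 7.36 TPM and at 1.08 and 1.43 TPM. The Cdx genes also respond to Wnt and FGF signals. Of 9 tested extracellular antagonists and modulators 4 were negative and 5 positive, with a median of 0.017. Fst, a secreted antagonist of activin and some BMPs, measured 120 and 82.3 TPM in wild type against 40.3 and 35.9 TPM in Stk40-/- cells (fold change -1.36, SE 0.21, limma adjusted p = 0.265), and Fstl1 at 56.7 and 56.6 TPM and at 48.0 and 42.6 TPM. Chrdl1 measured 0.570 and 0.952 TPM in wild type against 1.16 and 2.05 TPM in Stk40-/- cells, and it passed the filter on low values only through the Stk40-/- libraries.

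Summed markers of other cell types also differed between genotypes. In bulk RNA fewer cells of a type and less RNA per cell cannot be told apart. Of 16 feeder fibroblast markers 10 were tested, 8 with negative fold changes, and their summed level was 411 to 429 TPM in wild type and 300 to 309 TPM in Stk40-/- cells, most of it Tagln. Of these, Col3a1 and Pdgfrb passed the filter on low values only through wild type. Acta2 measured 14.3 and 11.7 TPM in wild type against 4.59 and 2.99 TPM in Stk40-/- cells, Col1a1 6.98 and 7.29 TPM against 3.96 and 3.74 TPM, and Col1a2 2.80 and 6.87 TPM against 1.33 and 2.31 TPM. The 2 with positive fold changes were Thy1, at 7.28 and 9.42 TPM against 13.1 and 9.17 TPM, and Loxl1. Loxl1 measured 1.69 and 2.42 TPM in wild type against 2.66 and 3.38 TPM in Stk40-/- cells. The fibroblast genes Dcn, Lum, Postn and Mgp were at or below 1.68, 0.0791, 0.331 and 0.504 TPM. Summed mesoderm markers were 636 to 1249 TPM in wild type and 267 to 415 TPM in Stk40-/- cells, with all 5 tested members of 15 negative, and T made up most of that. Of these 5, Msgn1 (0.975 and 0 TPM in Stk40-/- cells) passed the filter on low values only through wild type. Summed trophoblast markers were 850 to 1251 TPM and 611 to 760 TPM in the same order, with 9 of 10 tested members negative (Esx1 and Plac1 passed only through wild type) and Tpbpa at 0 in every library. Krt8 and Krt18 made up most of these sums. Tfap2c overlapped with a positive fold change of 0.32, and Elf5 and Gata3 were at or below 0.149 and 1.06 TPM. Neuroectoderm markers summed to 76.5 to 85.9 TPM in wild type and 108 to 132 TPM in Stk40-/- cells, with all 5 tested members positive (Sox1 passed only through Stk40-/-). Pluripotency markers summed to 671 to 843 TPM and 898 to 922 TPM, with 6 of 11 tested members negative, 5 positive and a median of -0.0084. Among them Pou5f1, the most abundant, measured 370 and 473 TPM in wild type against 372 and 465 TPM in Stk40-/- cells, and the genotypes overlapped. Nanog measured 113 and 132 TPM in wild type against 219 and 166 TPM in Stk40-/- cells, Utf1 125 and 148 TPM against 229 and 203 TPM, while Zfp42 had a fold change of -0.44. Endoderm markers were low, at 10.2 to 15.4 TPM in sum over the 4 libraries, with 3 of 4 tested members negative (Cxcr4 passed only through wild type). The part of these in the lower levels of Id1, Msx1 and Msx2 was not tested.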

How the data were processed

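The members and gene lists were chosen with earlier results of these data known. Per the file headers, the authors deposited TPM for each gene in 1 column per library, summing to 1000000 over 51826 genes, and 0 per-sample columns were left unused. The tools were CASAVA 1.7 and Salmon 0.8.2, per the submitters' processing notes, which list the human build hg38 although the IDs are mouse Ensembl IDs. No source used here gives the annotation. Libraries were read as pairs of 100 or 150 bases on different instruments. Which library was read how, and on which instrument, is not given, so no batch term could be fitted. TPM keeps no depth.

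Genotypes were taken from the sample titles and compared with limma 3.58.1 in R 4.3.3 on log2(TPM + 1), genes with a mean of 1 TPM or more (15739), an intensity trend, no replicate block and Benjamini-Hochberg adjustment over all tested genes at 0.05. Tested on simulated data for this comparison, with 200 of 15739 genes changed, it recovered 8.96% of genes changed 2-fold, 28.4% changed 4-fold and 60.6% changed 8-fold. All 9 members were named, with up to 3 genes of smallest unadjusted p per pathway list, the 3 E proteins and leading or absent markers (Mesp1, Kdr, Dcn, Lum, Postn, Mgp, Bambi-ps1 and the other single markers of other cell types were named after their values were seen). Positions came from GENCODE M21 on GRCm38, promoters from RefSeq on GRCm38.p6. Shared sequence was counted as 31-base words between GENCODE transcripts, and genes sharing at least 2% of theirs are given (other than pseudogenes, only those holding at least 1% of the member's). Alternatives covered pseudocount, filter, trend, scaling, replicate block and leaving out each library.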

Additional observations from a re-analysis of the deposited data

How the results depend on the processing

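Across 13 other settings limma called 0 genes lower and 0 higher in each, with a smallest adjusted p from 0.0694 to 0.319, and 0 of the 9 genes passed in any. Id1 kept its direction in all 13, with fold changes from -1.27 to -0.91 and limma adjusted p from 0.248 to 0.738. Id2, Id3, Smad7, Msx1 and Msx2 also kept theirs, with 12 settings for the Msx genes. With 1 library left out, Id4 ranged from -0.42 (without wild-type library 1) to 0.69, and was -0.38 without Stk40-/- library 1. Smad6 ranged from -0.39 to 0.045 (without Stk40-/- library 2), and Bambi from -0.000132 (without wild-type library 1) to 0.42. Bambi summed with Bambi-ps1, chosen after seeing the data, was -0.61. With a filter at a mean of at least 5 TPM, 4 of the 9 genes could be fitted, and 2 of these were lower in both Stk40-/- libraries, against 4 of 9; the other 5 had no value there. With 1 library left out, 4 or 5 of the 9 lay beyond the other genotype on the low side, against 26.6% to 31.8% of all tested genes, and 0 to 3 on the high side, against 39.9% to 44.1%. Centring on the median raised the share of all genes lower in both Stk40-/- libraries from 16.6% to 25.1%. Same-numbered libraries correlated at 0.09 in their deviations over genes, which cannot show whether or not they were paired. With the number as a block, limma called 0 genes. The fold change of Id1 was then -1.09 (limma adjusted p = 0.277) and that of Id3 was -0.62 (limma adjusted p = 0.289). The block changed the SE of Id3 from 0.32 to 0.095 and that of Id4 from 0.57 to 0.62. A library left out leaves 1 in its group, assumed to vary like the other group. Depth is unknown, and levels near 1 TPM, as for Msx1 and Msx2, are the least precise.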
